A study of Mus musculus with 6 samples.

Results

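RNA of 10 genes of the transforming growth factor beta (TGF-beta) pathway was examined in F4/80+ cells sorted from mouse liver tumours. The genes, taken by name from the 55401 genes of the table, were Tgfb1, Tgfbr1, Tgfbr2, Smad2, Smad3, Smad4, Smad6, Smad7, Ski and Skil. All 10 were found as single rows, and all 10 passed the filter on low counts and were tested. The tumours grew from Hepa 1-6 cells, a mouse hepatoma line, placed in the right lobe of the liver, and were collected at day 14. In the control group (3 libraries, labelled WT Control) the injected cells were unmodified as far as the labels say, and no empty vector is named. In the Sms-OE group (3 libraries) the injected cells overexpressed Sms, the gene of spermine synthase, from a lentivirus. The sorted cells themselves carried no named modification in either group, and both groups received no further treatment. The sources used here do not give the strain, age or sex of the mice, or whether a library came from 1 animal. P-values therefore measure the spread between these libraries, which may be technical.

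TGF-beta is secreted in a latent form, and once freed it binds the type II receptor Tgfbr2, which then activates the type I receptor Tgfbr1. Tgfbr1 phosphorylates Smad2 and Smad3, which join Smad4 and enter the nucleus to regulate genes. Smad6 and Smad7 inhibit the receptors, while Ski and Skil (SnoN) hold Smad complexes in a repressing state, and Smad7 and Skil are themselves known to be induced by the pathway as feedback. In macrophages the pathway is known for restraining inflammatory activation and for supporting tissue-resident identities.

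Totals ran from 49833764 to 58154006 estimated counts per library, and levels are given as CPM (counts scaled to a common library size with TMM factors). The 8 macrophage markers summed to 5320 to 5491 CPM in the controls and 5469 to 6470 CPM in Sms-OE, with Itgam higher and Cd68 lower in Sms-OE by the test, and Adgre1, the gene of the sorted F4/80 antigen, not passing (log2 fold change 0.34, adjusted p = 0.160). No marker of any list was at 0 in every library. Neutrophil markers summed to 2569, 2936 and 3927 CPM in the controls and 2445, 2574 and 1474 CPM in Sms-OE. By edgeR 0 of the 7 passed, while S100a8 (1.60-fold lower, adjusted p = 0.149) and S100a9 (1.67-fold lower, adjusted p = 0.0811) had groups that did not overlap. Cxcr2 had no overlap either, but in the other direction (1.17-fold higher, adjusted p = 0.0785). For the rest of the 7 the groups overlapped. Hepatocyte and hepatoma markers summed to 518 to 691 CPM in the controls and 204 to 318 CPM in Sms-OE, with 6 of 8 lower. Dendritic cell markers summed to 67.9 to 84.9 CPM in the controls and 46.4 to 53.3 CPM in Sms-OE, with 3 of 6 lower (Clec9a, Ccr7 and Cd209a). T and NK cell markers summed to 194 to 298 CPM in the controls and 220 to 364 CPM in Sms-OE, with 1 of 8 higher (Cd4). The part of these cell types in the results was not tested. Haemoglobin and other erythroid RNA stood at 5042 and 5005 CPM in Sms-OE replicates 2 and 3 and at 43.2 to 216 CPM in the other 4 libraries. Results are given with all 6 libraries, and where a call was lost without both of these libraries, which leaves Sms-OE replicate 1 alone against the controls, this is stated.

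Of the 10 genes, 6 rose in Sms-OE and none fell at an adjusted p under 0.05 by edgeR's quasi-likelihood test. The 6 were both receptors, Smad3, the inhibitory Smad7 and the co-repressors Ski and Skil. Across all 18277 genes tested, 26.9% passed in either direction, 12.5% higher and 14.3% lower. Of the calls over all genes 46.7% were higher, and 58.5% with library size alone as the scaling, under which the same count of 6 members rose. In bulk RNA, fewer cells of a type and less RNA per cell cannot be told apart. The count of 0 lower was the same at an unadjusted p under 0.05, with DESeq2 and with limma-voom. Under offsets for transcript length and GC content it was also 0, but 1 gene, Smad2, was lower at an unadjusted p under 0.05. The median log2 fold change (Sms-OE minus control) of the 10 genes was 0.42, from 0.05 to 1.02, beside -0.00 over all tested genes. Without both haemoglobin-rich libraries 3 genes, Tgfbr2, Smad7 and Skil, still passed. With the mean log2 level of the hepatocyte and hepatoma markers as a covariate, which moves with the groups, 0 of the 10 and 0 of all genes passed, while 3 of the 10 were higher at an unadjusted p under 0.05.

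**Figure D1:**
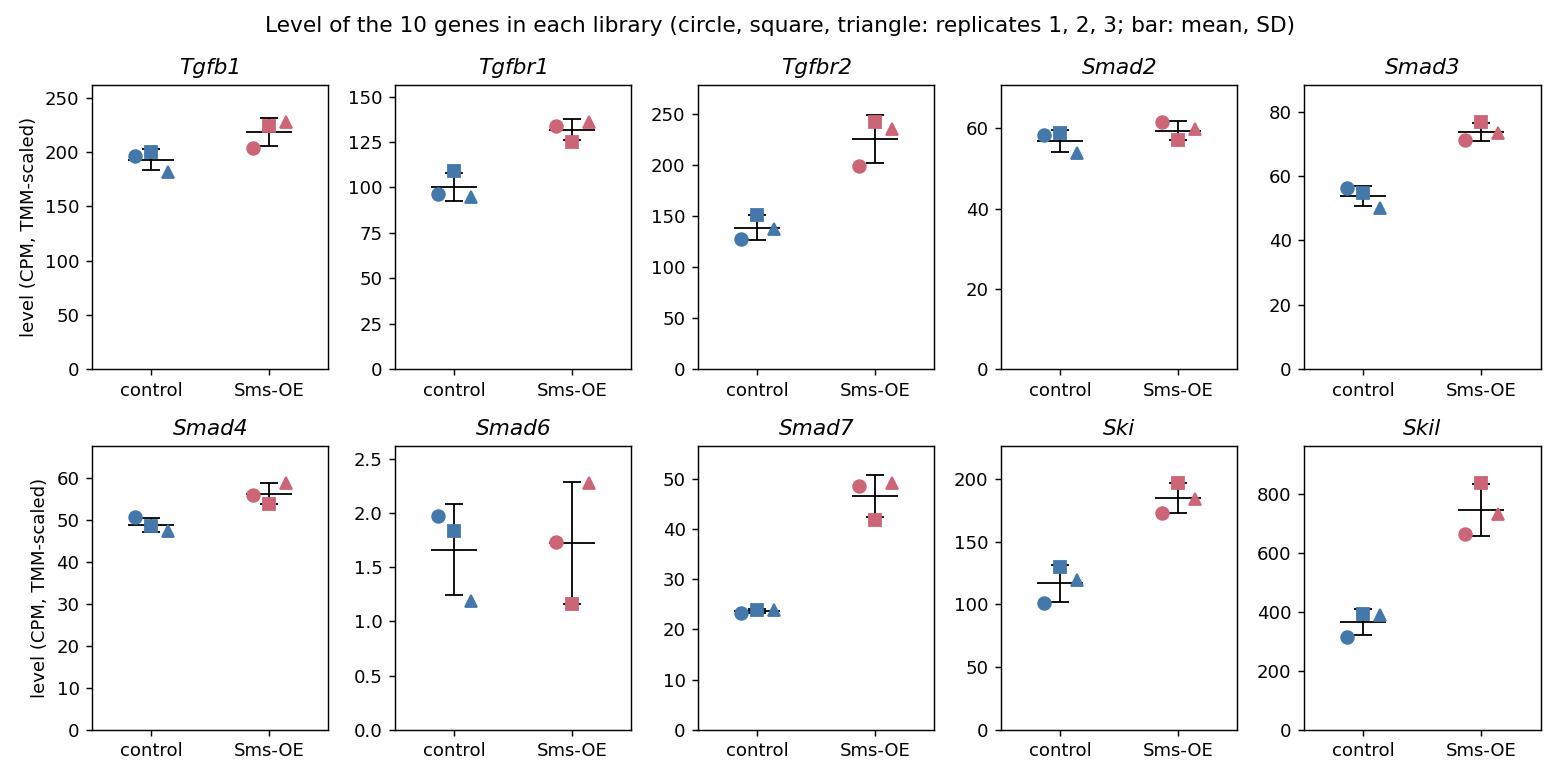
Level of each gene (vertical axis, CPM scaled by TMM factors, from 0) in the 3 control and 3 Sms-OE libraries, with a symbol per replicate, a long bar for the mean and whiskers for the SD. For Smad2 and Smad6 the groups overlap, and for the other 8 genes every Sms-OE library lies above every control library. The share of all tested genes without overlap is not given here, so this count has no background beside it.

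The upstream sequences of 4 genes that rose and for which RefSeq windows were at hand (GRCm38.p6) are shown. Smad7 and Skil, which also rose, had no window at hand and were not searched. Each line gives the 250 bases before an annotated start, 5′ to 3′ on the gene's strand, and capitals mark the Smad box CAGACA. Tgfbr1 has windows for 2 starts, and Tgfbr1 and Ski lie on chromosome 4 while Tgfbr2 and Smad3 lie on chromosome 9. The starts are those of RefSeq. By the GENCODE positions given below, Ski starts at 155222592, so part of its window lies inside the gene.
Tgfbr1, upstream start, chr4:47352972-47353221, plus strand: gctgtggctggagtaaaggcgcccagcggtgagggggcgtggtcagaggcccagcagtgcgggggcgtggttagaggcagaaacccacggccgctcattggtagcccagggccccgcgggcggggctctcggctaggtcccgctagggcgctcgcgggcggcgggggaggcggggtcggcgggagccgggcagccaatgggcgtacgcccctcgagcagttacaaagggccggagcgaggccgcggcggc
Tgfbr1, internal start, chr4:47385966-47386215, plus strand: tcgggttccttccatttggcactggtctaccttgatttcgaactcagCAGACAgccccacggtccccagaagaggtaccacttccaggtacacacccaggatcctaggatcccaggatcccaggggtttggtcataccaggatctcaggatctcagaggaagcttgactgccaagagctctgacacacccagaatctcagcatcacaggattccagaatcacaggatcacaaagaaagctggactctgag
Tgfbr2, chr9:116175364-116175613, minus strand: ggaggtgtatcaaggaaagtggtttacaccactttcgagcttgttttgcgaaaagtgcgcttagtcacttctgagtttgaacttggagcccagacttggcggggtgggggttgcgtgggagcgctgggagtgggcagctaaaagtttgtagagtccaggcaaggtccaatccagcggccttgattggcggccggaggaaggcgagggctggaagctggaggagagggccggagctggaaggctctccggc
Smad3, chr9:63757995-63758244, minus strand: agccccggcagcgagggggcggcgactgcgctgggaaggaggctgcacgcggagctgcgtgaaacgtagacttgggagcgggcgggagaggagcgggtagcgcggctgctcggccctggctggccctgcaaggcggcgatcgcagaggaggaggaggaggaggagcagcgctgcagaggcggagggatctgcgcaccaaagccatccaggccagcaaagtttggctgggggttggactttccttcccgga
Ski, chr4:155222536-155222785, minus strand: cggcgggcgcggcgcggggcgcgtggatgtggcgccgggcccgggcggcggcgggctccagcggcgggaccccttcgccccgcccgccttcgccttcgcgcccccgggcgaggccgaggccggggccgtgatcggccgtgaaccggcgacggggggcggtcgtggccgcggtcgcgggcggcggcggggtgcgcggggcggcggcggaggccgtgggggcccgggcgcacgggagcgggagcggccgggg

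CAGACA, searched on both strands, was found in 1 of these 5 windows, that of the internal Tgfbr1 start, 203 bases before it. It was not among the letters of the windows of Tgfb1 and Smad6 either. Of all 32851 windows of this length, 17.1% held it. The palindrome GTCTAGAC, which contains no CAGACA, was in none of the windows of these 6 genes and in 0.167% of all windows. GC content was 74.8% at the upstream start of Tgfbr1 and 52.8% at its internal start. It was 58.4% upstream of Tgfbr2, 69.2% upstream of Smad3 and 87.6% in the window of Ski. The median over all windows was 52.4%. Ski held 53 CpG pairs in its window and Tgfbr2 12. Counts per gene do not show which start was used.

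The ligand gene Tgfb1 (ENSMUSG00000002603, chromosome 7, 25687002 to 25705077, plus strand) was well expressed in both groups and did not pass the test. It measured 197, 200 and 182 CPM in the controls and 204, 224 and 228 CPM in Sms-OE. The Sms-OE values all lay above the control values, but the gap between Sms-OE replicate 1 and control replicate 2 was small. The log2 fold change was 0.18 ± 0.088 (SE), with a 95% interval of -0.02 to 0.37 and an adjusted p of 0.165. Platelets carry much TGF-beta 1. The 7 platelet and megakaryocyte markers summed to 26.4 to 35.7 CPM in the controls and 47.6 to 68.9 CPM in Sms-OE. Only Pf4 of the 7 passed, and it was higher, with means of 8.75 CPM in the controls and 30.3 CPM in Sms-OE. The part of platelets in the Tgfb1 level was not tested. With offsets for transcript length and GC content, described with the transcript lengths, Tgfb1 passed at a log2 fold change of 0.32 (adjusted p = 0.0266).

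Both receptor genes rose, and the estimate was larger for Tgfbr2 than for Tgfbr1. The 95% intervals of the log2 fold changes overlapped (0.47 to 0.94 for Tgfbr2 and 0.20 to 0.58 for Tgfbr1). With offsets for length and GC content the estimates were 0.44 and 0.30, and without both haemoglobin-rich libraries 0.52 and 0.41. Tgfbr2 (ENSMUSG00000032440, chromosome 9, 116084293 to 116175360, minus strand), the ligand-binding type II kinase, measured 127, 151 and 137 CPM in the controls and 199, 242 and 235 CPM in Sms-OE. Sms-OE replicate 1 was the lowest of its group and still well above the highest control. The rise was 1.63-fold (log2 0.70 ± 0.104 SE, adjusted p = 0.00144), and it passed without any 1 library. Tgfbr1 (ENSMUSG00000007613, chromosome 4, 47353222 to 47414931, plus strand), the type I kinase that phosphorylates Smad2 and Smad3, measured 96.6, 109 and 94.8 CPM in the controls and 134, 125 and 136 CPM in Sms-OE. The 2 groups did not overlap, and the rise was 1.31-fold (log2 0.39 ± 0.087, adjusted p = 0.00917). Leaving out control replicate 3 ended the Tgfbr1 call (adjusted p = 0.0502), as did leaving out both haemoglobin-rich libraries (0.41, adjusted p = 0.0789). Within each library, the log2 ratio of Tgfbr1 to Tgfbr2 was -0.46 ± 0.066 in the controls and -0.77 ± 0.190 in Sms-OE (SD, n = 3), a difference of -0.31. No Sms-OE ratio reached the lowest control ratio (exact permutation over libraries, two-sided, p = 0.10 and 0.10 adjusted over 4 ratios, which is the lowest that 3 against 3 allow).

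The Smads that carry the signal did not move alike. Smad3 (ENSMUSG00000032402, chromosome 9, 63646767 to 63757994, minus strand) measured 56.3, 54.8 and 50.2 CPM in the controls and 71.3, 76.9 and 73.4 CPM in Sms-OE. The groups were clear of each other, and the rise was 1.37-fold (log2 0.46 ± 0.085 SE, adjusted p = 0.00402), a call lost without both haemoglobin-rich libraries (0.40, adjusted p = 0.0825). Smad2, the other receptor-activated Smad (ENSMUSG00000024563, chromosome 18, 76241580 to 76310963, plus strand), measured 58.3, 58.8 and 53.8 CPM in the controls and 61.6, 57.0 and 59.8 CPM in Sms-OE. The groups overlapped, with a log2 fold change of 0.06 ± 0.083, a 95% interval of -0.12 to 0.25 and an adjusted p of 0.633. Smad4, the shared partner (ENSMUSG00000024515, chromosome 18, 73639009 to 73703780, minus strand), measured 50.6, 48.4 and 47.4 CPM in the controls and 55.9, 53.8 and 58.8 CPM in Sms-OE. Its groups did not overlap, but the log2 fold change of 0.20 ± 0.083 (95% interval 0.02 to 0.39) missed the threshold at an adjusted p of 0.0998. Under the offsets for length and GC content Smad4 passed (0.28, adjusted p = 0.0273) and Smad2 stood at -0.19 (95% interval -0.35 to -0.03, adjusted p = 0.0827). The log2 ratio of Smad2 to Smad3 within a library was 0.08 ± 0.030 in the controls and -0.31 ± 0.111 in Sms-OE (SD, n = 3). All 3 Sms-OE ratios lay below all 3 control ratios (difference -0.40, the same exact test, p = 0.10, the lowest allowed, 0.10 adjusted). A processed pseudogene on the opposite strand within Smad4 held at most 0.56% of its counts, and no other member overlapped an annotated gene.

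Of the inhibitory Smads, Smad7 rose, while Smad6 was low in both groups and did not pass. Smad7 (ENSMUSG00000025880, chromosome 18, 75367529 to 75395935, plus strand), which blocks Tgfbr1 and recruits ubiquitin ligases to it, measured 23.2, 23.8 and 23.9 CPM in the controls and 48.7, 41.8 and 49.3 CPM in Sms-OE. The controls were nearly equal, and the lowest Sms-OE library, replicate 2, was far above them. The rise was 1.97-fold (log2 0.98 ± 0.10 SE, adjusted p = 2.83e-04), which was the smallest p of the 10 genes, and without any 1 library the adjusted p was at most 0.00421. Smad6 (ENSMUSG00000036867, chromosome 9, 63953076 to 64022059, minus strand), which acts mainly on the bone morphogenetic protein (BMP) branch, held 118, 102 and 57 counts in the controls and 91, 58 and 118 in Sms-OE. At 1.19 to 1.97 CPM in the controls and 1.16 to 2.28 CPM in Sms-OE the groups overlapped, with a log2 fold change of 0.05 ± 0.343 and an interval of -0.71 to 0.81, so that a change of the size seen in Smad3 was not detectable at this depth. The log2 ratio of Smad7 to Smad6 was 3.86 ± 0.411 in the controls and 4.81 ± 0.366 in Sms-OE (SD, n = 3, the same exact test, p = 0.10, the lowest allowed, 0.10 adjusted), and here control replicate 3 (4.33) came close to Sms-OE replicate 3 (4.44).

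The co-repressor genes Ski and Skil rose together. Skil (ENSMUSG00000027660, chromosome 3, 31095058 to 31122577, plus strand) measured 315, 391 and 389 CPM in the controls and 662, 837 and 730 CPM in Sms-OE. Every Sms-OE library stood far above every control, and the rise of 2.03-fold (log2 1.02 ± 0.124 SE, adjusted p = 5.74e-04) was, with that of Smad7, the largest of the 10 genes. Which of the pair was larger depended on the setting: without both haemoglobin-rich libraries Skil gave 0.85 and Smad7 1.04, without Sms-OE replicate 2 they gave 0.92 and 1.04, without control replicate 1 0.92 and 0.96, and with limma-voom 0.98 and 0.99. Ski (ENSMUSG00000029050, chromosome 4, 155154075 to 155222592, minus strand), the related proto-oncogene, measured 101, 130 and 119 CPM in the controls and 173, 197 and 184 CPM in Sms-OE. The groups did not overlap, and the rise was 1.58-fold (log2 0.66 ± 0.107, adjusted p = 0.00207). Without both haemoglobin-rich libraries Skil passed (0.85, adjusted p = 0.0181) and Ski did not (0.56, adjusted p = 0.0579). The log2 ratio of Skil to Ski was 1.65 ± 0.064 in the controls and 2.00 ± 0.078 in Sms-OE (SD, n = 3, difference 0.36, the same exact test, p = 0.10, the lowest allowed, 0.10 adjusted), with no overlap between the groups.

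**Figure D2:**
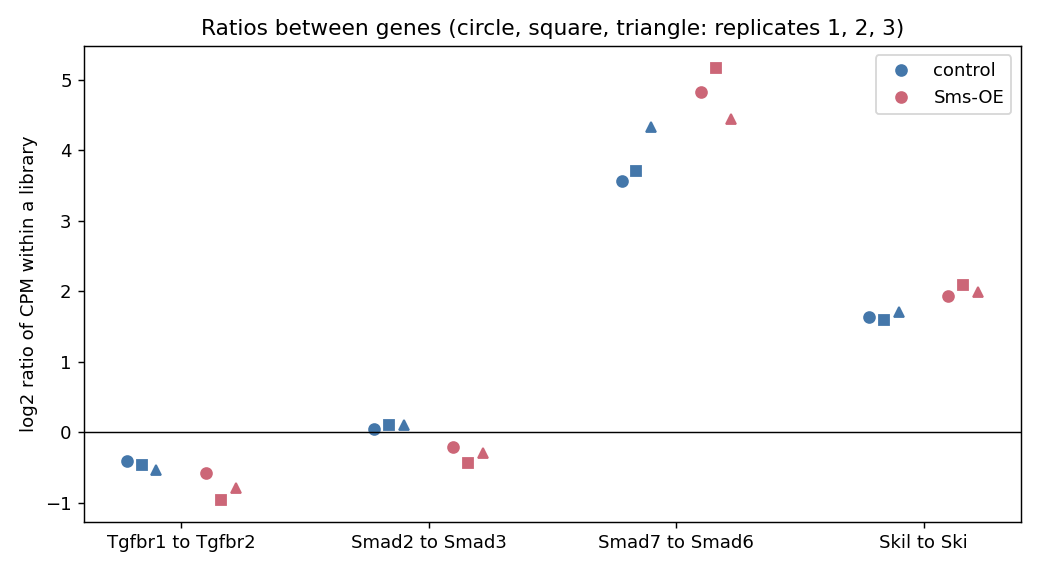
Log2 ratio of CPM between the genes of 4 pairs within each library (vertical axis), with control in blue, Sms-OE in red and a symbol per replicate. The Smad2 to Smad3 ratio runs from 0.05 to 0.10 in the 3 controls and from -0.43 to -0.21 in the 3 Sms-OE libraries, and in no pair do the groups overlap.

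Set on one scale per length (mean CPM per kilobase of the longest annotated transcript), the level of Tgfb1 led in the controls at 75.0 ± 3.91, followed by Skil at 54.4 ± 6.46, while in Sms-OE Skil led at 111 ± 13.1 and Tgfb1 followed at 85.0 ± 5.03 (SD, n = 3). The ranges of this pair did not overlap within either group. Ski, Tgfbr1 and Tgfbr2 came next in the controls at levels of 21.1, 17.4 and 17.1 CPM per kilobase, with overlapping ranges between neighbours. In Sms-OE the order was Ski, Tgfbr2 and Tgfbr1 at 33.4, 27.8 and 22.8, without overlap. Smad4 (14.4 in the controls and 16.6 in Sms-OE) and Smad3 (10.6 and 14.5) followed. Smad7 stood below Smad2 in the controls (5.52 against 7.04) and above it in Sms-OE (10.9 against 7.35), and Smad6 was last in both groups (0.559 and 0.580). Which isoforms were present is not known from counts per gene, so these levels depend on the length assumed.

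Fold changes across all genes rose with transcript length, and most of the 10 genes have long transcripts. Of 4 equal groups of tested genes by length, the longest (4314 bases and over) had 26.3% higher and 7.25% lower, the next had 11.9% higher and 13.2% lower, and the shortest had 5.11% higher and 17.7% lower. Tgfbr1, Tgfbr2, Smad2, Smad3, Ski and Skil fell in the longest group, where 5 of these 6 rose, and Smad7, at 4278 bases, in the next. With offsets fitted per library to length and GC content, 12.8% of the longest genes were higher. The 6 genes still passed under these offsets, with log2 fold changes of 0.87 for Skil, 0.85 for Smad7, 0.46 for Ski, 0.44 for Tgfbr2, 0.35 for Smad3 and 0.30 for Tgfbr1. With Tgfb1 and Smad4 added, 8 of the 10 were then higher.

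**Figure D3:**
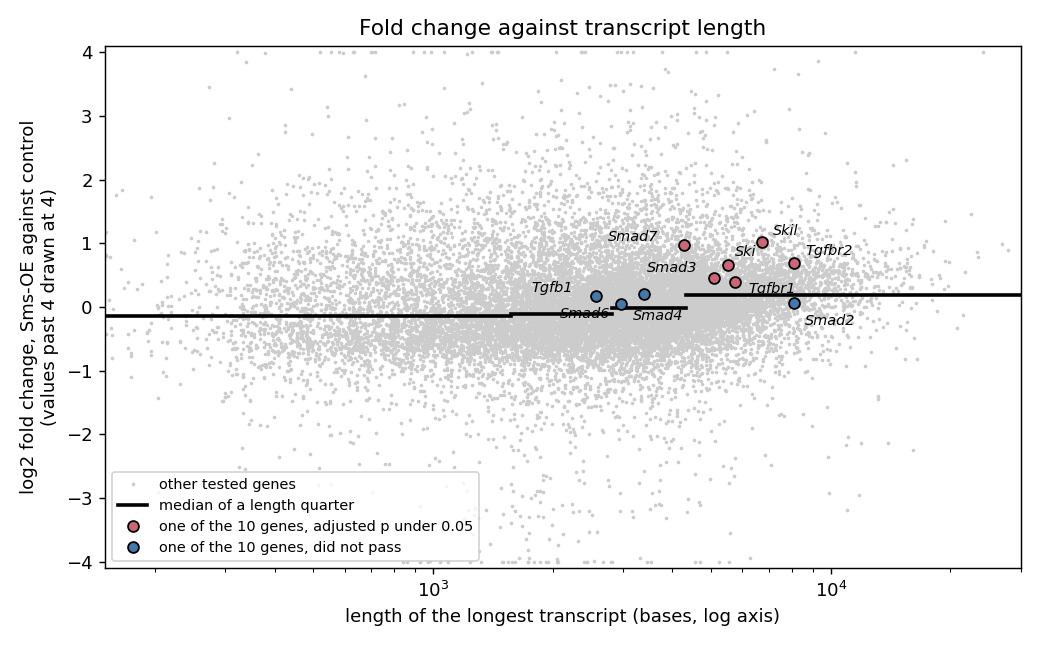
Log2 fold change of each tested gene (vertical axis, values past 4 drawn at 4) against the length of its longest transcript (horizontal log axis, bases), with black lines for the medians of 4 length groups. The 6 genes that rose (red) lie at or above 4278 bases and above the line of their length group, which is at 0.19 for the longest.

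**Figure D4:**
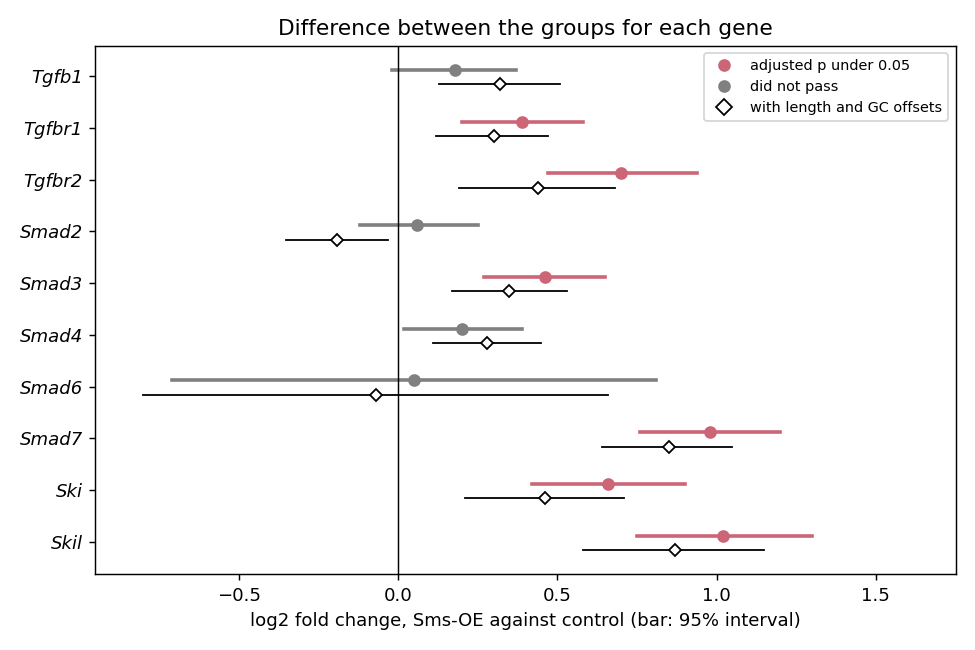
Log2 fold change of each gene (horizontal axis) with its 95% interval, as fitted (circles, red where the adjusted p was under 0.05) and with offsets for length and GC content (open diamonds). Smad7 and Skil lie near 1 and stay above 0.5 with offsets, while Smad2 moves from 0.06 to -0.19.

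Smad7 had the smallest p, and the genes whose log2 CPM followed its own most closely over the 6 libraries were Gxylt1, Fam102b, Aak1, Zbtb1 and Kmt2a, with Pearson correlations of 0.9972 to 0.9987. Their log2 fold changes lay between 0.50 and 0.92. Of 10302 genes with a mean of at least 5 CPM, 496 had a correlation above 0.95, so a profile like that of Smad7 was shared by many genes. The 6 points share their 2 groups, and no test was made.

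Beyond these 10 genes, 87 genes of the wider TGF-beta family pathway were listed by role, and 75 could be tested. Of the 75, 24 rose, 6 fell and 45 did not pass, with a median log2 fold change of 0.22, beside 12.5% higher and 14.3% lower over all genes. Under the offsets for length and GC content 18 rose and 7 fell, beside 2090 and 1763 of all 18277 genes. The number higher was 15 without control replicate 2 and 14 without control replicate 3, and the number lower was 3 without control replicate 1 or Sms-OE replicate 3. Without both haemoglobin-rich libraries 9 rose and 2 fell.

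**Figure D5:**
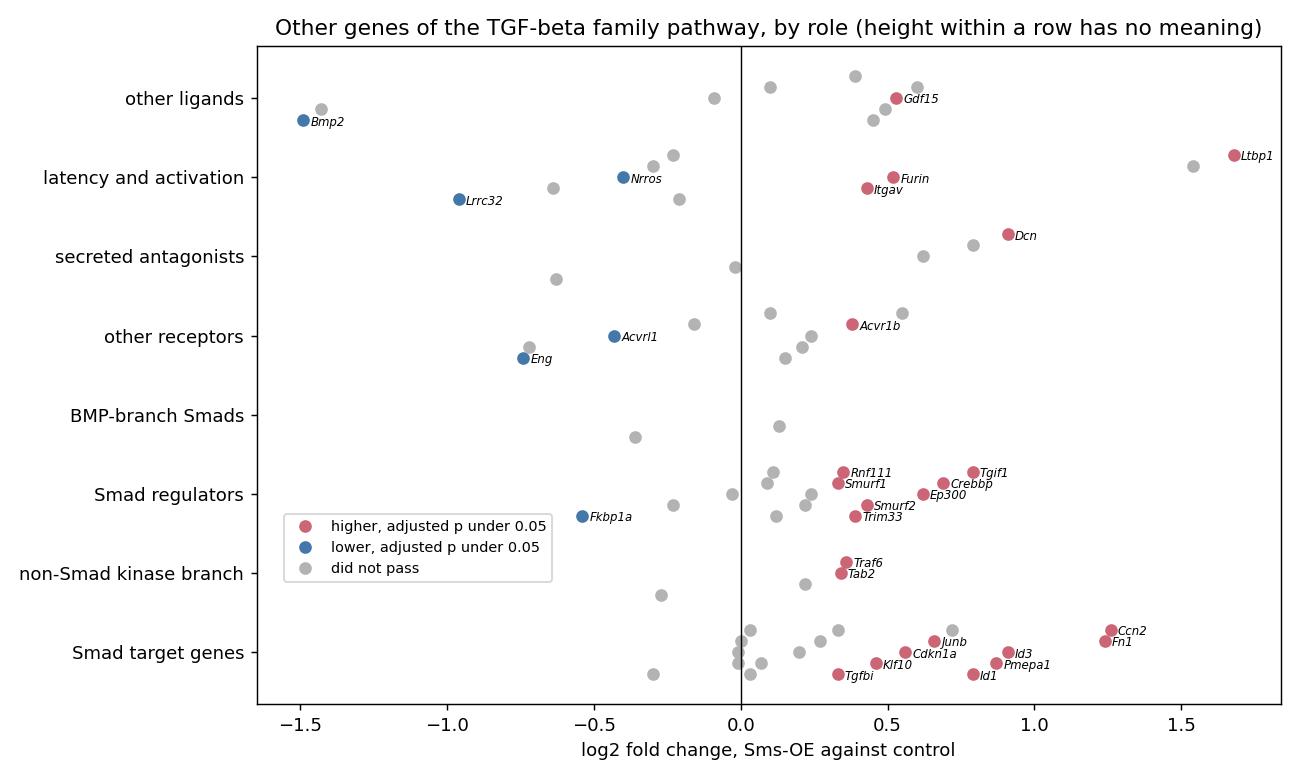
Log2 fold change (horizontal axis) of the 75 tested pathway genes outside the 10, in rows by role, in red where higher, blue where lower and grey where the adjusted p was 0.05 or more. Among Smad target genes 9 points are red and 0 blue, while other receptors hold 1 red and 2 blue points. Of all tested genes 12.5% were higher and 14.3% lower.

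Among the other ligands 1 of 9 tested rose and 1 fell, beside 12.5% and 14.3% of all genes. Bmp2, a BMP-branch ligand, fell 2.80-fold, from 4.87 ± 0.977 CPM in the controls to 1.74 ± 0.307 CPM in Sms-OE (SD, n = 3, log2 -1.49 ± 0.254 SE, adjusted p = 0.00268). Gdf15, a stress-induced member of the family, rose from 10.6 ± 1.56 to 15.2 ± 2.02 CPM (adjusted p = 0.0336), a call lost without any 1 of 5 libraries: adjusted p was 0.11 without Sms-OE replicate 1, 0.0748 without Sms-OE replicate 2, and 0.0673, 0.0610 and 0.122 without control replicates 1, 2 and 3. It was also lost when both haemoglobin-rich libraries were left out (adjusted p = 0.0867). The activin subunit gene Inhba measured 64.5, 65.0 and 59.6 CPM in the controls and 66.1, 125 and 74.4 CPM in Sms-OE, with Sms-OE replicate 2 far above the rest. Its log2 fold change of 0.49 ± 0.216 did not pass (adjusted p = 0.136), but did so without Sms-OE replicate 1 (adjusted p = 0.0350) and with DESeq2 (adjusted p = 0.0416). Bmp7 gave 0.45 ± 0.208 and did not pass. Of the sister ligands, named after their values were seen, Tgfb3 stood at 2.47 ± 1.04 and 2.65 ± 0.236 CPM without passing, and Tgfb2, at 0.0836 and 0.123 CPM, was too low to test.

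Genes that store or free latent TGF-beta went both ways, with 3 of 10 higher and 2 lower, beside 12.5% and 14.3% of all genes. All of the 10 but Nrros have transcripts of 4314 bases or more. In that length group 26.3% of all genes were higher and 7.25% lower. Furin, the protease that cuts the TGF-beta precursor, rose 1.44-fold, from 248 ± 20.7 CPM to 356 ± 40.0 CPM (SD, n = 3, log2 0.52 ± 0.11 SE, adjusted p = 0.00695), and Itgav, the integrin chain that pulls on latent complexes, rose 1.35-fold from 46.5 ± 2.06 to 62.9 ± 4.79 CPM (adjusted p = 0.00672). Neither call held under the offsets for length and GC content (adjusted p of 0.0841 for Furin and 0.0666 for Itgav), and that of Furin did not hold without both haemoglobin-rich libraries (adjusted p = 0.16). Nrros, which anchors latent TGF-beta on myeloid cells, was 1.32-fold lower, at 272 ± 30.0 and 206 ± 13.0 CPM (log2 -0.40 ± 0.103, adjusted p = 0.0169). Lrrc32 (GARP), its relative on regulatory T cells and platelets, was 1.94-fold lower, with 3.98 to 6.42 CPM in the Sms-OE libraries and 7.14 CPM in the lowest control (log2 -0.96 ± 0.24, adjusted p = 0.0159). For Nrros the adjusted p was 0.0592 without control replicate 1, 0.0610 without Sms-OE replicate 3 and 0.0617 with library size alone as the scaling. For Lrrc32 it was 0.0601 without control replicate 1, 0.0621 without control replicate 2 and 0.0596 without Sms-OE replicate 3. Neither gene passed without both haemoglobin-rich libraries (adjusted p = 0.219 and 0.107). Thbs1, a matrix protein that can activate latent TGF-beta, measured 5742 ± 1669 and 4980 ± 1337 CPM and did not pass, nor did Ltbp3.

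Of 10 other receptors and co-receptors tested, 1 rose and 2 fell, beside 12.5% and 14.3% of all genes. Eng (endoglin), a co-receptor best known from endothelium, fell 1.68-fold, from 26.2 ± 2.75 CPM in the controls to 15.7 ± 2.32 CPM in Sms-OE (SD, n = 3), with a log2 fold change of -0.74 ± 0.14 (SE) and an adjusted p of 0.00430. Acvrl1 (ALK1), its type I partner, was 1.35-fold lower at 47.8 ± 7.22 and 35.6 ± 0.555 CPM (adjusted p = 0.0220), and Acvr1b, the activin type I receptor, 1.30-fold higher at 33.2 ± 2.82 and 43.3 ± 3.15 CPM (adjusted p = 0.0208). For Acvrl1 the adjusted p was 0.0828 and 0.0836 without control replicates 1 and 2, 0.0532, 0.0503 and 0.0563 without Sms-OE replicates 1, 2 and 3, and 0.0842 with library size alone. For Acvr1b it was 0.0826 and 0.0777 without control replicates 1 and 3, and 0.0793 without Sms-OE replicate 3. Eng, Acvrl1 and Acvr1b did not pass without both haemoglobin-rich libraries (adjusted p = 0.0811, 0.181 and 0.287). Endothelial markers summed to 136 to 152 CPM in the controls and 115 to 156 CPM in Sms-OE. Pecam1 made up most of this, with means of 105 and 104 CPM. Of the 8 markers, 4 were lower in Sms-OE (Kdr 2.89-fold, Tek 4.35-fold, Stab2 1.56-fold and Emcn 9.04-fold) and 1 higher (Cdh5, 1.72-fold). Tek and Emcn were low, at 1.49 and 0.949 CPM in the controls. The part of endothelial RNA in the Eng and Acvrl1 levels was not tested. Bmpr2 and Bambi did not pass, and neither did the BMP-branch Smads, with Smad5 at 0.13 ± 0.147 and Smad1 at -0.36 ± 0.166. Smad9 was too low to test.

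Regulators of Smad activity rose more often than they fell, with 7 of 15 higher and 1 lower, beside 12.5% and 14.3% of all genes. Most of the 15 have transcripts of 4314 bases or more, and in that length group 26.3% of all genes were higher and 7.25% lower. Tgif1, a homeodomain co-repressor of Smad complexes, rose 1.73-fold, from 153 ± 7.35 to 266 ± 31.7 CPM over the libraries (SD, n = 3, log2 0.79 ± 0.103 SE, adjusted p = 7.67e-04). The acetyltransferase co-activators Crebbp and Ep300, which Smads share with many other factors, rose 1.62-fold (57.5 ± 1.02 to 93.0 ± 6.42 CPM, adjusted p = 5.81e-04) and 1.54-fold (122 ± 6.83 to 188 ± 17.7 CPM, adjusted p = 0.00166). Both have long transcripts (10820 and 9566 bases), and under the offsets for length and GC content their log2 fold changes moved from 0.69 to 0.31 for Crebbp (adjusted p = 0.0260) and from 0.62 to 0.28 for Ep300 (adjusted p = 0.0273). Smurf2, a ubiquitin ligase that Smad7 brings to the receptors, named after its values were seen, rose 1.35-fold (37.6 ± 2.42 to 50.8 ± 3.16 CPM, adjusted p = 0.00855), though not when control replicate 2 (adjusted p = 0.0559) or both haemoglobin-rich libraries (0.0546) were left out. Fkbp1a (FKBP12), which keeps Tgfbr1 inactive without ligand, fell 1.45-fold, from 108 ± 4.52 CPM in the controls to 74.4 ± 5.91 CPM in Sms-OE (adjusted p = 0.00218, log2 -0.54 ± 0.088), and did not pass without both haemoglobin-rich libraries (adjusted p = 0.0625). Strap (-0.23 ± 0.085) and Usp15 (0.09 ± 0.082) did not pass, but Strap did without Sms-OE replicate 1 (adjusted p = 0.0452), and Usp15 was called lower under the offsets for length and GC content (-0.28, adjusted p = 0.0324).

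In the kinase branch that works without Smads, 2 of 4 genes rose, beside 12.5% of all genes. All of the 4 but Tab1 have transcripts of 4314 bases or more, a length group in which 26.3% of all genes were higher. Tab2, an adaptor of the kinase TAK1, was 1.27-fold higher at 156 ± 7.38 and 198 ± 10.4 CPM (SD, n = 3, adjusted p = 0.0146), and Traf6, a ubiquitin ligase, 1.28-fold higher at 45.9 ± 4.96 and 58.9 ± 6.00 CPM (adjusted p = 0.0357). For Tab2 the adjusted p was 0.0557 and 0.0702 without control replicates 2 and 3, and 0.0539 without Sms-OE replicate 3. For Traf6 it was 0.116 and 0.142 without control replicates 2 and 3, 0.0530 and 0.134 without Sms-OE replicates 2 and 3, 0.153 under the offsets for length and GC content, and 0.0508 with no filter on low counts. Neither gene passed without both haemoglobin-rich libraries (adjusted p = 0.141 and 0.326). Map3k7, the gene of TAK1 itself, and Tab1 gave 0.22 ± 0.091 and -0.27 ± 0.163 and did not pass.

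Among 20 tested genes known to respond to Smads, 9 rose and none fell, and 11 did not pass, beside 12.5% higher and 14.3% lower of all genes. Many of these genes also answer to other signals. Id3 and Id1, inhibitors of differentiation induced mainly by the BMP branch, rose 1.88-fold (16.9 ± 0.650 to 31.7 ± 3.98 CPM, adjusted p = 8.09e-04) and 1.73-fold (26.6 ± 2.52 to 46.1 ± 11.9 CPM, adjusted p = 0.00686). Junb, an AP-1 subunit and early response gene, rose 1.58-fold from 2075 ± 55.6 to 3276 ± 360 CPM (adjusted p = 0.00277), and Klf10, an early TGF-beta response factor, rose 1.38-fold from 74.3 ± 5.93 to 103 ± 10.5 CPM (SD, n = 3, adjusted p = 0.00811). These 4 genes passed without any 1 library, but Id1, Junb and Klf10 did not without both haemoglobin-rich libraries (adjusted p = 0.103, 0.0665 and 0.141). Ccn2, Fn1 and Cdkn1a, named after their values were seen, rose as well. Ccn2 (connective tissue growth factor) measured 4.37, 2.99 and 2.87 CPM in the controls and 11.4, 7.01 and 6.09 CPM in Sms-OE (log2 1.26 ± 0.275, adjusted p = 0.00855). Fn1 (fibronectin) was highest in Sms-OE replicate 1, at 1884 CPM against 1058 and 866 CPM in the other Sms-OE libraries and 494 to 559 CPM in the controls. Cdkn1a, the cell cycle inhibitor p21, rose 1.48-fold, though not when control replicate 2 (adjusted p = 0.0660) or both haemoglobin-rich libraries (0.166) were left out. Stellate cells and fibroblasts also express Ccn2 and Fn1. Their markers summed to 77.3 to 96.0 CPM in the controls and 109 to 149 CPM in Sms-OE. Dcn alone had means of 45.3 and 85.0 CPM. Of 7 markers tested, 2 were higher (Dcn and Col1a2), while Col1a1, Col3a1, Lum, Pdgfrb and Acta2 did not pass. The part of these cells in the rises of Ccn2, Fn1 and Cdkn1a was not tested.

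Among the target genes Tgm2, a transglutaminase, at 5390 ± 870 and 6176 ± 1160 CPM (SD, n = 3) in the controls and Sms-OE, did not pass (log2 0.20 ± 0.168 SE, adjusted p = 0.432). Of 5 secreted antagonists tested, 1 rose, beside 12.5% of all genes. This was Dcn (decorin), a matrix proteoglycan that binds TGF-beta and is itself a fibroblast marker. It measured 53.1, 36.1 and 46.8 CPM in the controls and 104, 86.1 and 64.5 CPM in Sms-OE (log2 0.91 ± 0.186 SE, adjusted p = 0.00763). Fst (1.66 and 1.07 CPM) and Fstl1 (0.882 and 1.52 CPM) were low in both groups and did not pass.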

How the data were processed

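Estimated counts per gene were deposited for 6 libraries as whole numbers, not normalized, and were used as given. Per the labels' protocols, poly(A) RNA was selected on oligo(dT) beads and the strand was marked with dUTP. Per the submitters' processing notes, the authors' tools were StringTie 2.1.6, HISAT2 2.2.1, DESeq2, FastQC 0.11.9 and cutadapt 1.9. Build, annotation and strand setting: not given in the sources used here. More genes held 4 counts than 3 or 5 in each library, so a count is an estimate and not always a read. Names, positions, lengths and GC content came from GENCODE M21 (GRCm38) by Ensembl identifier, matching 55141 of 55401 rows. The other 260 made up no more than 0.0125% of the counts in any library.

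Groups and replicate numbers came from sample titles. edgeR 4.0.16 (R 4.3.3; filterByExpr, TMM, robust glmQLFit, glmQLFTest) was fitted to all genes, with Benjamini-Hochberg adjustment over 18277 genes and a threshold of 0.05, and the steps were tested on simulated data. SEs were derived from the F statistic, and intervals are 95%. CPM are TMM-scaled. Ratios within a library were compared by exact permutation over 20 assignments. Members, lists and tests were chosen with earlier results of these data known. All 10 members were named, and of each other list up to 4 genes past the threshold by smallest p and up to 2 of highest CPM that did not pass. Of these, 1 gene is not reported here. The 18 alternatives were other scalings, filters and tests (DESeq2 1.42.0, limma 3.58.1 voom), no robust step, a replicate block, length and GC offsets (mgcv 1.9.3), a hepatocyte marker covariate, each library left out, and, added after seeing the data, both haemoglobin-rich libraries left out. Of 9 hepatocyte and hepatoma marker symbols, 8 matched a row.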

Additional observations from a re-analysis of the deposited data

How the results depend on the processing

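The 6 members higher and 0 lower were found under 14 of 18 alternatives. The exceptions were the length and GC offsets (8 higher), leaving out control replicate 3 (5), leaving out both haemoglobin-rich libraries (3) and the hepatocyte marker covariate (0). With that covariate 0 of 18277 genes passed in either direction, as did 0 of the 75 other pathway genes, while 2141 genes and 3 members (all higher) had an unadjusted p under 0.05; the covariate moves with the groups, and covariate and group cannot be told apart. Leaving out each library in turn, members higher ranged from 5 to 6, other pathway genes higher from 14 to 21 and lower from 3 to 7, all genes higher from 1366 to 2015 and lower from 1684 to 2473. Without both haemoglobin-rich libraries there were 9 and 2 other pathway genes and 690 and 694 of all genes higher and lower, with 1 Sms-OE library assumed to vary like the controls. With library size alone the calls split into 2521 higher and 1788 lower, beside 2293 and 2615.

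Signs of some log2 fold changes turned; the cause was not tested. With the hepatocyte marker covariate these were Tgfb1 (-0.08), Smad2 (-0.14), Smad4 (-0.06), Smad6 (-2.04), Thbs1 (1.02), Fst (0.62), Bmpr2 (-0.15), Smad5 (-0.02), Traf6 (-0.37), Map3k7 (-0.0047) and Tgfb3 (-1.09). With the length and GC offsets they were Smad2 (-0.19), Smad6 (-0.07), Bmpr2 (-0.18), Smad5 (-0.04) and Usp15 (-0.28). Leaving out each library in turn, Smad6 ranged from -0.21 to 0.26, Smad5 from -0.02 to 0.25, Ltbp3 from -0.39 to 0.02 and Tgfb3 from -0.17 to 0.44. Tgfb3 was -0.01 with limma-voom. Without both haemoglobin-rich libraries Ltbp3 was 0.04, Tab1 5.4e-04, Tgm2 -0.16 and Tgfb3 -0.05.

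Same-numbered libraries shared little of their deviation (correlations of 0.0646, 0.0196 and -0.0075 over genes). The labels do not say whether equal numbers mark paired samples. Correlations over all genes cannot exclude a pairing that touches few of them. With the replicate block 2117 genes were higher and 2415 lower, 6 members were higher, and 18 and 6 other pathway genes were higher and lower. Of the genes named, Traf6 lost its call (adjusted p = 0.0710), and the block changed no other call.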
